A study of Macaca fascicularis with 8 samples.

Results

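Genes of DNA replication and mitosis were followed in embryonic stem cells (ESCs) of the cynomolgus monkey (Macaca fascicularis). The set listed 45 genes, 22 that act in S phase and 23 that act in G2 and mitosis (G2/M). A gene was taken from the row of the deposited table that carried its symbol, or else from the row whose best protein match named its protein at 85% identity or more, and the row with the highest mean level was used where several qualified. This gave 41 genes of the 33121 in the table, 7 by symbol and 34 by protein match, of which 19 were S phase genes and 22 were G2/M genes. The best match of the rows for MCM3, MCM7, POLE2 and CDK1 was an unnamed protein, so these 4 genes were not matched. Their levels are given below from rows whose lower-ranked matches name them, are marked as outside the rule, and enter no count unless stated.

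Cells copy their DNA in S phase and divide it in mitosis, and each step has its own machinery. In G1, the origin recognition complex, CDC6 and CDT1 load the MCM2-7 helicase onto origins. In S phase, CDC45 and GINS turn the helicase on, polymerases with the sliding clamp PCNA copy the strands, and ribonucleotide reductase and thymidylate synthase supply the nucleotides. In G2 and mitosis, cyclins A and B with CDK1, the Polo and Aurora kinases, kinetochore proteins and kinesin motors condense, attach and part the chromosomes. Primate pluripotent stem cells are known for short G1 phases and a large share of cells in S phase.

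The study compared dome-shaped with primed ESCs by sequencing of polyadenylated RNA, with 4 libraries in each group. Dome-shaped cells formed domed colonies and were labelled as passaging strongly as single cells. They grew in a medium named NHSMV, with LIF (10 ng/ml), basic fibroblast growth factor (8 ng/ml), TGF-β1 (1 ng/ml), insulin, vitamin C (50 μg/ml) and 5 kinase inhibitors. These were PD0325901 (1 μM, against MEK), CHIR99021 (3 μM, against GSK3), SB202190 (5 μM) and SB203580 (10 μM), both against p38, and SP600125 (10 μM, against JNK). Primed cells formed flat colonies, were labelled as passaging weakly as single cells, and grew in a medium named CESM, a mixture of PSGro and conventional monkey ESC medium. Medium, colony shape and group coincide and cannot be told apart. In each group 2 of the 4 titles share a number, whose meaning the labels do not give. These are dome-shaped replicates 1 and 2 and primed replicates 3 and 4. Nothing says that the libraries came from separate cultures, so p-values measure the spread between these samples, which may be technical.

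Values were deposited as RPKM, in which reads are divided by the length of the gene and the depth of the library, and their steps implied 14400000 to 17680000 reads in dome-shaped and 16360000 to 18080000 reads in primed libraries. Of the 9 pluripotency markers listed, 5 were matched, and their summed level was 1241 to 1552 RPKM in dome-shaped and 1524 to 1836 RPKM in primed libraries. LIN28A gave most of this sum in every library. On average 4 of the 5 were lower in dome-shaped libraries, and SOX2 was higher (264 against 219 RPKM). ZFP42 (52.3 against 88.5 RPKM) and LIN28B (61.2 against 82.5 RPKM) passed the test used below (adjusted p = 0.0078 and 0.0447, limma). Summed trophoblast markers (7 of 9 matched) lay at 5.64 to 10.4 RPKM in dome-shaped and 20.8 to 86.8 RPKM in primed libraries, with CGA and VGLL1 under 1 RPKM in every library. Of the 4 tested, 2 passed, KRT7 and HAND1, both lower in dome-shaped libraries. KRT7 averaged 3.19 RPKM in dome-shaped and 14.5 RPKM in primed libraries (adjusted p = 0.00128, limma). HAND1 averaged 0.197 RPKM in dome-shaped and 2.74 RPKM in primed libraries (adjusted p = 0.0219, limma). Summed fibroblast markers (5 of 10 matched) lay at 14.8 to 26.998 RPKM in dome-shaped and 25.4 to 62.4 RPKM in primed libraries, with DCN and POSTN under 1 RPKM throughout. THY1 gave most of this sum in every library, at 9.71 to 22.9 RPKM in dome-shaped and 15.3 to 52.2 RPKM in primed libraries. Of the 2 tested, THY1 did not pass. PDGFRB was called lower in dome-shaped libraries (5.19 against 9.29 RPKM, adjusted p = 0.0247, limma). Neural markers (5 of 7 matched) summed to 4.24 to 31.9 RPKM in dome-shaped and 4.82 to 6.97 RPKM in primed libraries, with DCX, NEUROD1 and ELAVL3 under 1 RPKM throughout. TUBB3, the 1 neural marker tested, averaged 15.3 RPKM in dome-shaped and 4.49 RPKM in primed libraries and did not pass (adjusted p = 0.115, limma). Endoderm markers (6 of 8 matched) summed to 7.69 to 154 RPKM in dome-shaped and 29.8 to 306 RPKM in primed libraries. CER1 made up 132 RPKM of the highest dome-shaped sum and 259 RPKM of the highest primed sum. Of the 5 endoderm markers tested, 1 passed, AFP, at 1.98 RPKM in dome-shaped and 5.96 RPKM in primed libraries (adjusted p = 0.0192, limma). No matched marker was at 0 in all 8 libraries. The part of these other cell types in the results below was not tested. Dome-shaped replicate 4 stood apart: on the principal component that held 49.3% of the variance it lay at -9.92, the other dome-shaped libraries at -41.1 to -40.7 and the primed libraries at 28.6 to 37.0. Counts of calls and medians of the set are therefore also given without it, while values of most single genes are given only with it.

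Most replication and mitosis genes differed little between dome-shaped and primed cells, and those that passed the test were higher in dome-shaped cells. Of the 41 genes, 4 rose and 0 fell at an adjusted p under 0.05 (limma on log2(RPKM + 1), Benjamini-Hochberg adjustment over 15597 genes). The risers were the origin-licensing factor CDC6, the thymidylate synthase TYMS, the mitotic cyclin CCNB2 and the kinetochore motor CENPE, by 1.33- to 1.62-fold. They made up 9.76% of the set, against 6.38% of all genes tested that were called higher and 7.96% called lower, or 14.3% in either direction. The share called higher was thus near the background and is no result about the set. Without dome-shaped replicate 4, 8 of the 41 rose and 0 fell, against 8.26% of all genes called higher and 9.24% called lower. CENPF, RFC2, RFC4 and RRM1 joined the call there. Without dome-shaped replicate 1, 4 rose, against 4.81% of all genes. Without dome-shaped replicate 2 or 3, 1 and 0 rose, against 2.56% and 2.83% of all genes. Without primed replicates 1, 2, 3 and 4, 2, 1, 3 and 1 rose, against 5.08%, 2.44%, 3.31% and 3.12% of all genes. The calls over all genes thus became fewer in those fits too.

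The sizes of the differences were small. The log2 fold changes of the 41 genes ran from -0.13 to 0.69, with a median of 0.16 against 0.03 for all genes tested. All genes tested spanned -0.93 to 0.66 between their 5th and 95th percentiles. The difference was positive for 30 of the 41 genes (73.2%), against 53.2% of all genes. The 95% interval of the fold change lay within 2-fold in both directions for 40 of the 41, all but CCNB2, against 79.1% of all genes. It lay within 1.5-fold for 34 of the 41 (82.9%), against 50.0% of all genes. The set is abundant, with a median at the 89.4th percentile of level, though its genes ranged from 3.51 to 257 RPKM. Whether level accounts for the narrow intervals was not tested. The median SD between libraries of a group was 0.16 for the S phase genes and 0.15 for the G2/M genes on the log2 scale. It was 0.19 for the 11793 genes between 3.51 and 257 RPKM and 0.21 for all genes. The low end of that range was set by the NUSAP1 row, which may not be the gene's main row. Those 11793 genes had only to lie in the range and were not matched in level to the set. Whether level accounts for the smaller SD of the set was not tested either. In bulk RNA, a change in the share of cells in a phase cannot be told apart from a change in transcripts per cell in that phase.

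**Figure D1:**
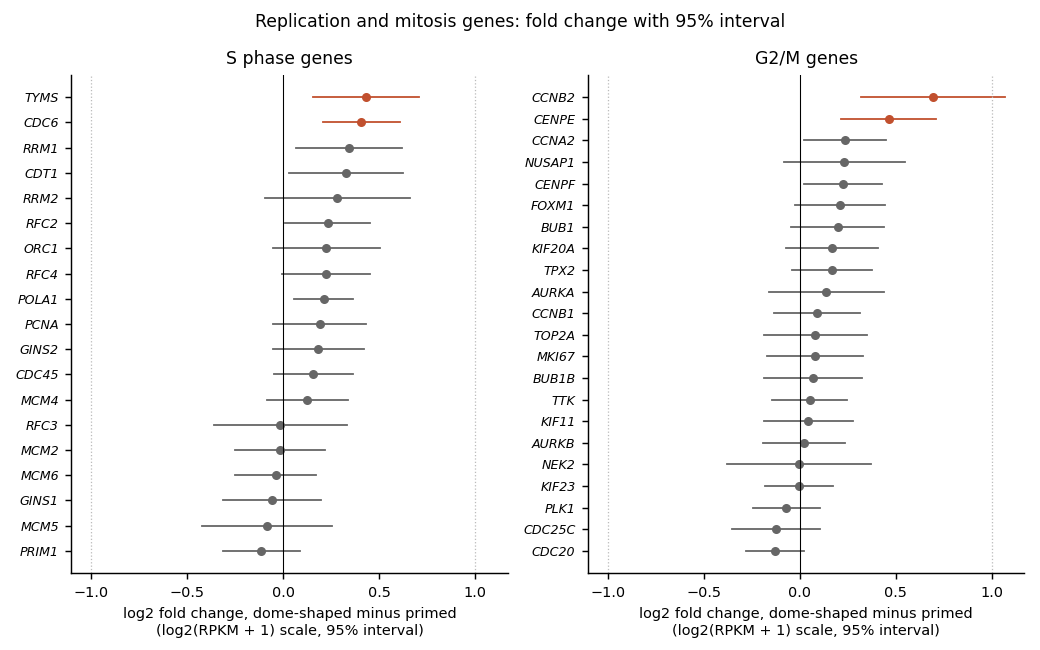
Log2 fold change (dome-shaped minus primed, log2(RPKM + 1) scale) of each S phase and G2/M gene with its 95% interval, with the genes called at an adjusted p under 0.05 marked by colour and dotted lines at 2-fold either way. Intervals cluster near 0 on both panels, and the 4 called genes (CDC6, TYMS, CCNB2 and CENPE) all lie to the right of 0.

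None of the helicase genes passed the test. MCM2, a subunit of the MCM2-7 ring, was measured at 117, 127, 162 and 133 RPKM in dome-shaped replicates 1 to 4, against 121, 142, 143 and 136 RPKM in the primed ones. The groups overlapped fully, and the log2 fold change was -0.02 with a 95% interval of -0.25 to 0.22 (adjusted p = 0.937, limma). MCM4 averaged 154 ± 18.9 RPKM in dome-shaped and 140.2 ± 8.55 RPKM in primed cells (SD, n = 4 each, as for all means below). MCM5 averaged 124 ± 24.5 RPKM in dome-shaped and 130.3 ± 19.5 RPKM in primed cells, and MCM6 averaged 173 ± 19.6 and 177 ± 13.1 RPKM in dome-shaped and primed cells. Intervals of the log2 fold change were -0.08 to 0.34 for MCM4, -0.42 to 0.26 for MCM5 and -0.25 to 0.17 for MCM6. Outside the rule, MCM3 stood at 218 ± 35.2 RPKM in dome-shaped and 220.2 ± 35.4 RPKM in primed cells, and MCM7 at 245 ± 37.5 RPKM in dome-shaped and 272 ± 12.9 RPKM in primed cells.

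The MCM2-7 proteins form a ring with a copy of each subunit, and the transcripts of the 6 subunits lay within 2.56-fold of each other in every library. Whether this band is narrower than for other genes was not tested, and MCM3 and MCM7 come from rows outside the rule. On the RPKM scale, which is per length, the highest subunit stood 1.98, 2.16, 1.82 and 2.02 times above the lowest in dome-shaped replicates 1 to 4, and 2.56, 2.01, 2.001 and 2.01 times in the primed ones. By group mean MCM7 was the highest in both groups, followed by MCM3, and MCM5 was the lowest. The low end was not clearly ordered, since MCM2 averaged 135 ± 19.1 RPKM in dome-shaped and 135 ± 10.3 RPKM in primed cells, within an SD of MCM5 in both groups.

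**Figure D2:**
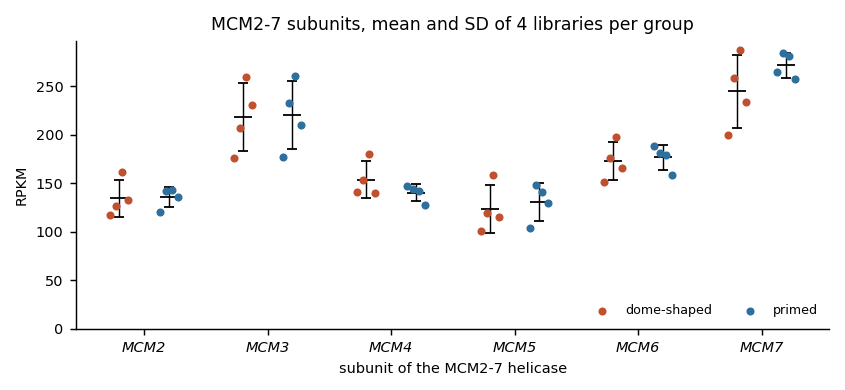
RPKM of the 6 subunits of the MCM2-7 helicase, with points for libraries and bars for the mean and SD of 4 libraries per group, dome-shaped left of primed. Both groups overlap at every subunit, and MCM7 has the highest mean, 245 RPKM in dome-shaped and 272 RPKM in primed cells.

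Of the licensing factors, CDC6 passed the test and CDT1 and ORC1 did not. CDC6, the ATPase that brings the helicase to origins, was measured at 52.9, 63.7, 64.8 and 56.8 RPKM in dome-shaped replicates 1 to 4, against 44.96, 47.8, 40.8 and 44.7 RPKM in the primed ones. Every dome-shaped library lay above every primed library. CDC6 (ENSMMUG00000004755) rose 1.33-fold (95% interval 1.16 to 1.52, log2 fold change 0.41, SE 0.09, adjusted p = 0.0185, limma). Leaving out dome-shaped replicate 2 or 3 moved its adjusted p to 0.0571 or 0.0549, at a log2 fold change of 0.37 in both. CDT1, the partner of CDC6 in loading, averaged 93.9 ± 18.5 RPKM in dome-shaped and 73.7 ± 5.13 RPKM in primed cells, and missed the threshold (log2 fold change 0.33, interval 0.03 to 0.63, adjusted p = 0.128, limma). A second CDT1 row held 53.6 RPKM in dome-shaped and 43.0 RPKM in primed cells (log2 fold change 0.32, adjusted p = 0.118, limma). ORC1, a subunit of the origin recognition complex, averaged 49.7 ± 7.93 RPKM in dome-shaped and 42.2 ± 4.28 RPKM in primed cells (interval -0.05 to 0.50). The ratio of CDC6 to ORC1 was 1.08 to 1.29 in dome-shaped and 0.920 to 1.25 in primed libraries, so the groups overlapped.

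Helicase activators and the replication fork gave no call. CDC45, which joins the helicase at firing, averaged 36.0 ± 4.07 RPKM in dome-shaped and 32.0 ± 0.926 RPKM in primed cells. The GINS subunits were split, with GINS1 at 72.7 ± 10.1 RPKM in dome-shaped and 75.5 ± 6.83 RPKM in primed cells, and GINS2 at 89.2 ± 9.79 RPKM in dome-shaped and 78.5 ± 8.92 RPKM in primed cells. PCNA, the sliding clamp, was measured at 227, 283, 302 and 249 RPKM in dome-shaped replicates 1 to 4, against 243, 227, 258 and 201 RPKM in the primed ones. The groups overlapped, and the log2 fold change was 0.19 (interval -0.05 to 0.43, adjusted p = 0.262, limma). Of the clamp loader subunits, RFC2 averaged 73.2 ± 9.97 RPKM in dome-shaped and 61.8 ± 2.43 RPKM in primed cells, and RFC4 averaged 83.0 ± 10.4 RPKM in dome-shaped and 70.7 ± 4.81 RPKM in primed cells. RFC3 averaged 27.4 ± 4.91 RPKM in dome-shaped and 27.6 ± 4.91 RPKM in primed cells. RFC2 and RFC4 passed only without dome-shaped replicate 4, at log2 fold changes of 0.30 and 0.31 (adjusted p = 0.0498 and 0.0335, limma).

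Polymerase alpha and primase start each new strand together, and neither gene passed the test. POLA1, the catalytic subunit, was measured at 44.8, 49.2, 49.6 and 47.8 RPKM in dome-shaped replicates 1 to 4, against 43.0, 41.2, 40.2 and 40.2 RPKM in the primed ones. The groups did not overlap, but the log2 fold change of 0.21 (interval 0.06 to 0.36) missed the threshold (adjusted p = 0.0673, limma). Its per-library values were chosen for printing after they were seen, because the groups did not overlap. It passed under quantile normalization (adjusted p = 0.0468) and without dome-shaped replicate 1 (adjusted p = 0.0439). PRIM1, the small primase subunit, averaged 39.4 ± 4.27 RPKM in dome-shaped and 42.6 ± 1.71 RPKM in primed cells, with a log2 fold change of -0.11 (interval -0.32 to 0.09). Outside the rule, POLE2 of the leading-strand polymerase epsilon averaged 15.9 ± 2.61 RPKM in dome-shaped and 12.9 ± 2.84 RPKM in primed cells.

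The S phase gene with the largest difference was in nucleotide supply. TYMS, which makes thymidylate, was measured at 247, 191, 236 and 185 RPKM in dome-shaped replicates 1 to 4, against 163, 148, 184 and 139 RPKM in the primed ones. Its lowest dome-shaped library lay just above its highest primed library. TYMS (ENSMMUG00000004046) rose 1.35-fold (95% interval 1.12 to 1.63, log2 fold change 0.43, SE 0.12, adjusted p = 0.045, limma). The call was lost without any of dome-shaped replicates 1, 2 or 3 or primed replicates 1, 2 or 4, with adjusted p up to 0.117. It was also lost without the filter on low values (0.0735), under median-of-ratios scaling (0.0544) and with no mean trend (0.0707).

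Ribonucleotide reductase needs a large subunit, RRM1, and a small subunit, RRM2. RRM1 was measured at 90.1, 90.2, 95.7 and 64.6 RPKM in dome-shaped replicates 1 to 4, against 67.4, 65.8, 71.4 and 60.8 RPKM in the primed ones. Dome-shaped replicate 4 alone fell within the primed range. The log2 fold change was 0.34 (interval 0.07 to 0.62, adjusted p = 0.0915, limma), and 0.47 without that library (adjusted p = 0.00617, limma). RRM2 averaged 283 ± 61.7 RPKM in dome-shaped and 230.2 ± 35.9 RPKM in primed cells, with a log2 fold change of 0.28 (interval -0.10 to 0.66). The ratio of RRM2 to RRM1 ran from 2.30 to 3.99 in dome-shaped and from 3.10 to 4.09 in primed libraries.

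**Figure D3:**
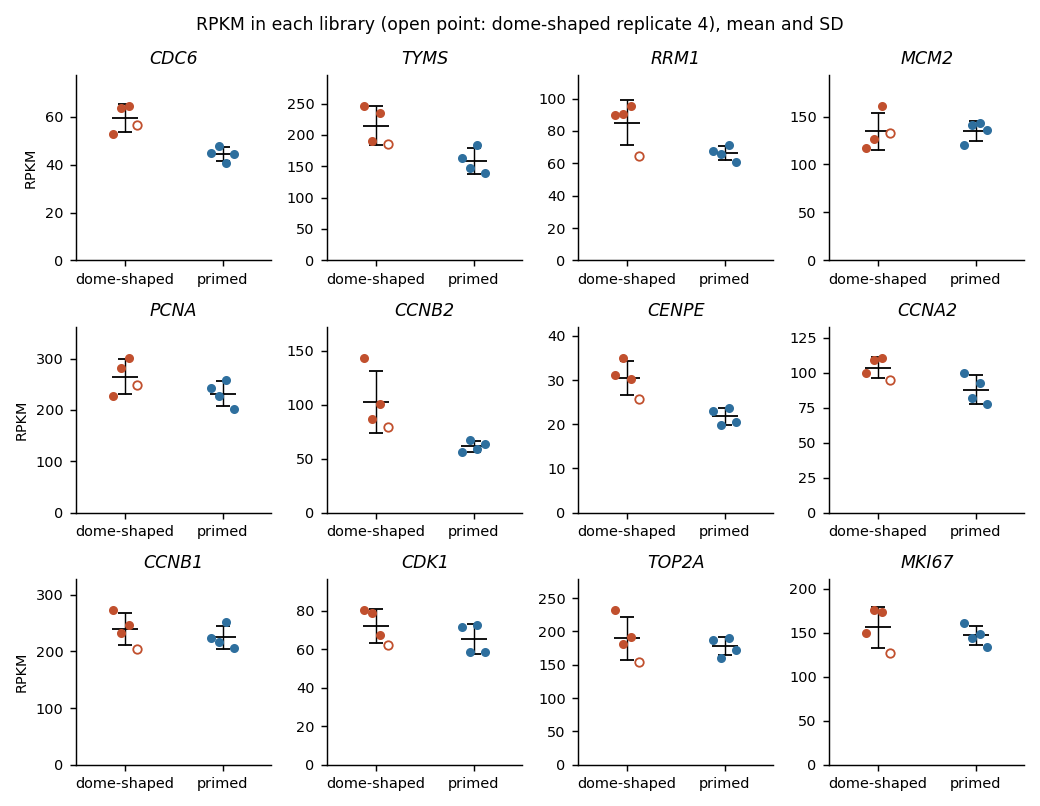
RPKM in each library of CDC6, TYMS, RRM1, MCM2, PCNA, CCNB2, CENPE, CCNA2, CCNB1, CDK1, TOP2A and MKI67, dome-shaped left of primed, with points for libraries and bars for the mean and SD. Groups do not overlap for CDC6, TYMS, CCNB2 and CENPE, and overlap for the other genes drawn.

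Of the G2/M cyclins, CCNB2 passed the test and CCNB1 and CCNA2 did not. CCNB2, a B-type cyclin that activates CDK1, was measured at 144, 87.1, 101 and 79.5 RPKM in dome-shaped replicates 1 to 4, against 56.0, 67.4, 59.4 and 63.7 RPKM in the primed ones. All dome-shaped libraries lay above all primed ones, and dome-shaped replicate 1 stood highest. CCNB2 (ENSMMUG00000029628) rose 1.62-fold (95% interval 1.25 to 2.10, log2 fold change 0.69, SE 0.17, adjusted p = 0.0251, limma), the largest change of the set. Leaving out dome-shaped replicate 3 or any primed replicate ended the call, with adjusted p of 0.0525 to 0.0643 and log2 fold changes of 0.65 to 0.74.

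CCNB1, the other main B-type cyclin, was measured at 273, 233, 247 and 205 RPKM in dome-shaped replicates 1 to 4, against 224, 216, 252 and 205 RPKM in the primed ones. The groups overlapped, with a log2 fold change of 0.09 (interval -0.14 to 0.31, adjusted p = 0.576, limma). The ratio of CCNB2 to CCNB1, chosen after the values were seen and not tested, was 0.526, 0.374, 0.408 and 0.388 in dome-shaped replicates 1 to 4, against 0.250, 0.312, 0.236 and 0.310 in the primed ones. CCNB2 transcripts were thus fewer than CCNB1 transcripts per length in every library, and the ratio was higher in every dome-shaped library. CCNA2, the cyclin of S phase and G2, was measured at 99.4, 109, 111 and 94.9 RPKM in dome-shaped replicates 1 to 4, against 99.4, 81.7, 92.9 and 77.4 RPKM in the primed ones. It missed the threshold at a log2 fold change of 0.24 (interval 0.02 to 0.45, adjusted p = 0.123, limma). Outside the rule, their partner kinase CDK1 was measured at 80.5, 78.6, 67.4 and 62.0 RPKM in dome-shaped replicates 1 to 4, against 71.6, 58.8, 72.5 and 58.6 RPKM in the primed ones. The CDK1 groups overlapped, with a log2 fold change of 0.14 (interval -0.12 to 0.39).

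Mitotic kinases, activators and checkpoint genes gave no call. CDC20, which turns on the anaphase-promoting complex, averaged 175 ± 11.6 RPKM in dome-shaped and 191 ± 6.48 RPKM in primed cells, and its log2 fold change of -0.13 (interval -0.28 to 0.02) was the lowest of the set. CDC25C, a phosphatase that activates CDK1, averaged 24.3 ± 2.95 RPKM in dome-shaped and 26.5 ± 1.66 RPKM in primed cells. PLK1, the Polo kinase of mitotic entry and spindle assembly, averaged 160.0 ± 14.7 RPKM in dome-shaped and 168 ± 6.63 RPKM in primed cells. These were the G2/M genes with the most negative differences, all with intervals that include 0.

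The Aurora kinases were AURKA of the spindle poles, at 52.1 ± 8.41 RPKM in dome-shaped and 47.0 ± 5.80 RPKM in primed cells, and AURKB of the centromere, at 78.8 ± 7.21 RPKM in dome-shaped and 77.6 ± 8.02 RPKM in primed cells. The spindle checkpoint gene BUB1 averaged 98.0 ± 6.16 RPKM in dome-shaped and 85.8 ± 12.7 RPKM in primed cells. BUB1B averaged 53.9 ± 8.84 RPKM in dome-shaped and 51.0 ± 3.47 RPKM in primed cells, and TTK averaged 27.7 ± 2.66 RPKM in dome-shaped and 26.6 ± 0.569 RPKM in primed cells. The interval of each of these 5 log2 fold changes included 0, and the largest was 0.20 for BUB1 (interval -0.04 to 0.44). NEK2, a centrosome kinase, averaged 13.9 ± 3.13 RPKM in dome-shaped and 13.8 ± 2.21 RPKM in primed cells, with an interval of -0.38 to 0.37. FOXM1, the transcription factor that drives many G2/M genes, averaged 45.2 ± 4.95 RPKM in dome-shaped and 38.9 ± 3.80 RPKM in primed cells (interval -0.03 to 0.44).

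CENPE, a kinesin that carries chromosomes to the metaphase plate, was measured at 31.2, 35.1, 30.2 and 25.7 RPKM in dome-shaped replicates 1 to 4, against 22.9, 19.9, 23.8 and 20.6 RPKM in the primed ones. The groups did not overlap. CENPE (ENSMMUG00000019089) rose 1.38-fold (95% interval 1.16 to 1.64, log2 fold change 0.46, SE 0.11, adjusted p = 0.0245, limma). The call was lost without dome-shaped replicate 2 or 3 or primed replicate 2 or 4, with adjusted p of 0.0619 to 0.0757. CENPF, a large kinetochore protein that binds CENPE, averaged 75.8 ± 8.83 RPKM in dome-shaped and 64.4 ± 2.64 RPKM in primed cells. It missed the threshold at a log2 fold change of 0.23 (adjusted p = 0.126, limma) and passed without dome-shaped replicate 4 at 0.30 (adjusted p = 0.0345, limma).

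Spindle motors gave no call. KIF11, which pushes the spindle poles apart, averaged 39.9 ± 5.20 RPKM in dome-shaped and 38.5 ± 2.04 RPKM in primed cells. A second KIF11 row held 30.2 RPKM in dome-shaped and 31.3 RPKM in primed cells (log2 fold change -0.06, adjusted p = 0.765, limma). KIF20A and KIF23, motors of the central spindle and cytokinesis, averaged 69.7 ± 9.54 and 50.7 ± 2.42 RPKM in dome-shaped cells, against 61.5 ± 4.02 and 50.9 ± 3.84 RPKM in primed cells. Their log2 fold change intervals were -0.19 to 0.28 for KIF11, -0.07 to 0.41 for KIF20A and -0.18 to 0.17 for KIF23. TPX2, a spindle assembly factor, averaged 103 ± 11.2 RPKM in dome-shaped and 91.2 ± 6.32 RPKM in primed cells (interval -0.04 to 0.38). NUSAP1, a microtubule binder, was matched to a row with an identifier of the authors' own, whose match spans only 47 residues and which may not be the gene's main row. It stood at 3.88 ± 0.595 RPKM in dome-shaped and 3.14 ± 0.181 RPKM in primed cells, the lowest level of the set. Outside the rule, a longer NUSAP1 row at 82.4% identity held 62.9 ± 11.5 RPKM in dome-shaped and 58.7 ± 2.31 RPKM in primed cells (log2 fold change 0.08).

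Proliferation markers overlapped between the groups. TOP2A, the topoisomerase that untangles sister chromatids, was measured at 232, 180.5, 192 and 154 RPKM in dome-shaped replicates 1 to 4, against 187, 161, 189.9 and 172 RPKM in the primed ones. Dome-shaped libraries were both the highest and the lowest, and the log2 fold change was 0.08 (interval -0.19 to 0.35, adjusted p = 0.679, limma). MKI67, the Ki-67 antigen that coats mitotic chromosomes, was measured at 149.5, 176, 173 and 127 RPKM in dome-shaped replicates 1 to 4, against 161, 145, 148 and 134 RPKM in the primed ones. The groups overlapped here too, with a log2 fold change of 0.08 (interval -0.17 to 0.33, adjusted p = 0.665, limma). That row had a query of 188 bases, and a second MKI67 row held 28.0 RPKM in dome-shaped and 26.2 RPKM in primed cells, with a log2 fold change of 0.09 (adjusted p = 0.621, limma).

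S phase and G2/M genes were then compared within each library. The mean log2(RPKM + 1) of the 19 S phase genes was 6.42, 6.52, 6.67 and 6.36 in dome-shaped replicates 1 to 4, against 6.34, 6.36, 6.39 and 6.24 in the primed ones. That of the 22 G2/M genes was 6.13, 5.99, 6.02 and 5.78 in dome-shaped replicates 1 to 4, against 5.91, 5.81, 5.89 and 5.79 in the primed ones. Both means overlapped between the groups, with dome-shaped replicate 4 inside the primed range for S phase genes and just below it for G2/M genes. Without that library the other dome-shaped values all lay above the primed ones. The S phase mean minus the G2/M mean was 0.29, 0.53, 0.65 and 0.58 in dome-shaped replicates 1 to 4, against 0.43, 0.55, 0.50 and 0.45 in the primed ones. Its group mean was 0.51 ± 0.15 in dome-shaped and 0.48 ± 0.05 in primed libraries. The difference of 0.03 was smaller than the SD between libraries of 0.11, so no shift between S phase and G2/M transcripts beyond that spread was seen. That SD is the spread of single libraries and not the error of the difference, which was not tested. Without dome-shaped replicate 4 the difference was 0.01, and with each library left out in turn it ran from -0.02 to 0.10.

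**Figure D4:**
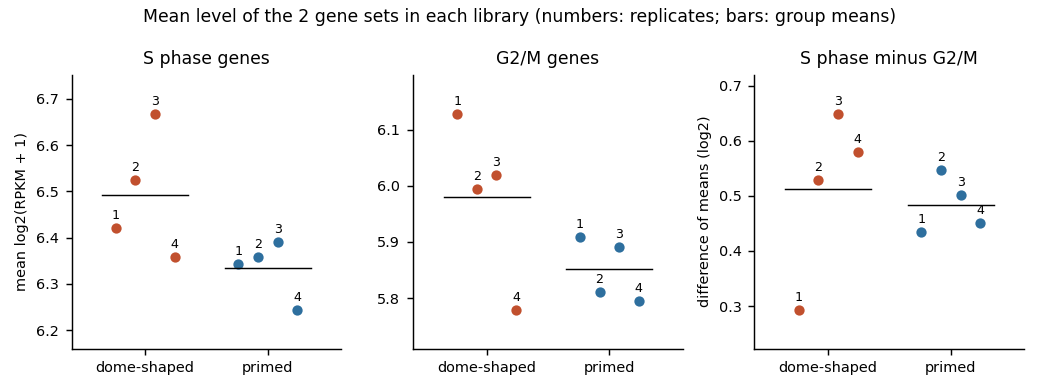
Mean log2(RPKM + 1) of the S phase genes, of the G2/M genes, and their difference, in each library, dome-shaped left of primed, with points for libraries and bars for the group means. Dome-shaped libraries are spread more widely than primed ones on all 3 panels, and the difference averages 0.51 in dome-shaped and 0.48 in primed libraries.

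Dome-shaped libraries differed among themselves in both phases. Dome-shaped replicate 1 was the highest of the 4 for 14 of 22 G2/M genes and the lowest for 9 of 19 S phase genes, whereas dome-shaped replicate 3 was the highest for 14 of 19 S phase genes. Dome-shaped replicate 4 was the highest for 0 genes of either kind and the lowest for 16 of 22 G2/M genes and 8 of 19 S phase genes. Among primed libraries, replicate 4 was the lowest for 10 of 19 S phase and 10 of 22 G2/M genes. The median log2 fold change was 0.19 for S phase and 0.09 for G2/M genes, and 0.22 and 0.18 without dome-shaped replicate 4, against 0.04 for all genes there. The G2/M median was 0.05 without dome-shaped replicate 1, and the S phase median was 0.12 without dome-shaped replicate 3. Genes called higher numbered 2 of 19 in S phase and 2 of 22 in G2/M, against 6.38% of all genes. Without dome-shaped replicate 4 they numbered 5 of 19 and 3 of 22, against 8.26% of all genes. Groups did not overlap with dome-shaped higher for 5 of the 41 genes (12.2%), against 11.5% of all genes, and with dome-shaped lower for 0 of them, against 10.7%.

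Further genes of the same processes were read from wider lists. Unlike the set, wider-list and marker genes with no row by the rule above were taken from any protein match to the gene. That match had to reach 85% identity and 0.95 of the best score. EXO1, CDC25B, CKAP2 and TFDP2 were among them, so shares called in these lists and in the set rest on unlike choices of rows. Of 31 other S phase genes tested (47 listed), 5 rose and 0 fell, or 16.1% against 6.38% of all genes called higher. Their median log2 fold change was 0.23, and 26 differences were positive. Without dome-shaped replicate 4, 8 rose and 1 fell, and without dome-shaped replicates 1, 2 or 3 or primed replicates 1, 2, 3 or 4 only 1 to 3 rose. All genes called higher moved likewise, to 8.26% without dome-shaped replicate 4 and to 2.44% to 5.08% without each of the others. POLE4, an accessory subunit of polymerase epsilon, was measured at 55.8, 58.5, 78.1 and 66.4 RPKM in dome-shaped replicates 1 to 4, against 35.2, 40.2, 44.3 and 34.7 RPKM in the primed ones. The groups lay well apart, and POLE4 rose by 0.72 on the log2 scale (SE 0.12, adjusted p = 0.00761, limma). The call held without each library in turn, at 0.63 to 0.79. EXO1, an exonuclease of mismatch repair and replication, rose to 32.7 ± 3.54 RPKM in dome-shaped cells, against 24.8 ± 2.01 RPKM in primed cells (adjusted p = 0.0359, limma), and lost the call without dome-shaped replicate 2 or 3 or primed replicate 2, 3 or 4. CHAF1B, a subunit of the factor that places histones on new DNA, averaged 28.3 ± 4.54 RPKM in dome-shaped and 19.5 ± 3.24 RPKM in primed cells (adjusted p = 0.0439, limma). The CHAF1B call held only without dome-shaped replicate 4. TOPBP1 and ORC6 were the other risers.

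Of 56 other G2/M genes tested (72 listed), 9 rose and 0 fell, again 16.1% of the list, against 6.38% of all genes. The median log2 fold change was 0.24, and 48 differences were positive. Without dome-shaped replicate 4, 16 rose, and leaving out each of the other 7 libraries in turn left 3 to 7, against the same shares of all genes (8.26%, and 2.44% to 5.08%). CDC25B, a phosphatase that starts CDK1 activation, was measured at 45.01, 36.7, 38.7 and 29.3 RPKM in dome-shaped replicates 1 to 4, against 22.9, 22.1, 17.5 and 20.4 RPKM in the primed ones. It rose with no overlap (log2 fold change 0.81, SE 0.14, adjusted p = 0.00745, limma), in contrast to CDC25C above. CENPI, a kinetochore subunit, was measured at 15.6, 17.98, 14.8 and 12.1 RPKM in dome-shaped replicates 1 to 4, against 8.79, 7.98, 9.35 and 8.22 RPKM in the primed ones. It rose with no overlap either (log2 fold change 0.74, SE 0.13, adjusted p = 0.00837, limma). CKAP2, a spindle-associated protein, averaged 137 ± 11.3 RPKM in dome-shaped and 99.8 ± 10.4 RPKM in primed cells (log2 fold change 0.45, adjusted p = 0.0142, limma). The calls of CDC25B, CENPI and CKAP2 held without each library in turn, with the highest adjusted p at 0.0276, 0.0306 and 0.0491 (limma). The other risers were CENPH, CENPN, KIF15, CEP55, KNTC1 and PSRC1, each of which lost its call without at least 1 library.

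Calls among regulators of these steps were read against all genes, of which 14.3% were called in either direction and 31.6% had an unadjusted p under 0.05. None of 13 subunits of the anaphase-promoting complex passed in either direction (3 at an unadjusted p under 0.05, 2 higher and 1 lower), with a median log2 fold change of -0.02. Of 11 replication checkpoint genes 0 passed, with 1 higher at an unadjusted p under 0.05 and a median of 0.07. Of 13 genes of the E2F, RB and DREAM group, 1 rose and 1 fell, a share near that of all genes, with a median of 0.14. RB1, the retinoblastoma protein that restrains E2F factors, was measured at 25.9, 27.7, 21.2 and 28.1 RPKM in dome-shaped replicates 1 to 4, against 17.4, 21.6, 11.4 and 12.7 RPKM in the primed ones. It rose by 0.70 on the log2 scale (SE 0.19, adjusted p = 0.038, limma), with a slight overlap of the groups. The call held only without primed replicate 1 or 2. TFDP2, a dimer partner of E2F factors, was measured at 31.7, 31.7, 31.2 and 34.4 RPKM in dome-shaped replicates 1 to 4, against 41.8, 39.9, 44.3 and 39.8 RPKM in the primed ones. It fell by 0.35 on the log2 scale (SE 0.07, adjusted p = 0.0159, limma), with no overlap, and the call held without each library in turn.

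**Figure D5:**
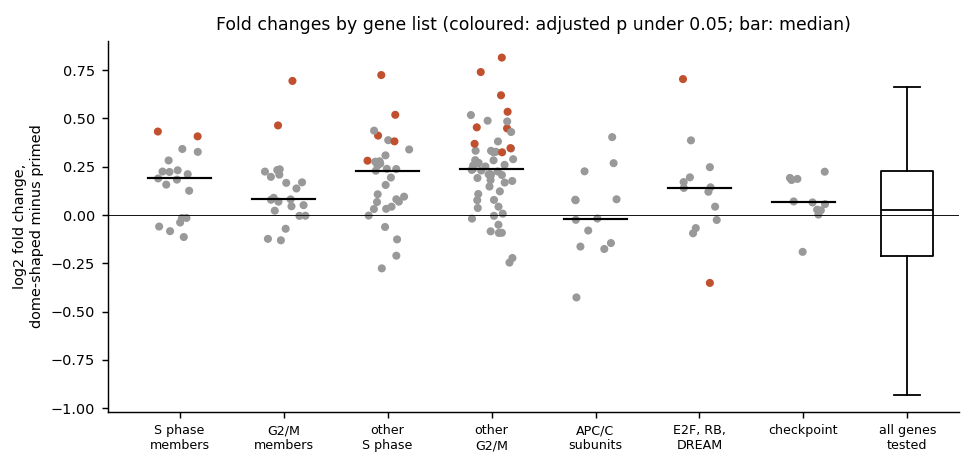
Log2 fold changes (dome-shaped minus primed) of the S phase and G2/M genes, the wider lists and all genes tested, with points for genes, colour for an adjusted p under 0.05 and a bar for the median; all genes are drawn as a box of quartiles with whiskers at the 5th and 95th percentiles. Medians of the lists lie between -0.02 and 0.24, against 0.03 for all genes.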

How the data were processed

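The authors deposited 1 table of RPKM values per gene for the 8 libraries, with up to several protein matches per gene and the percent identity of each match, a deposited percent used here only to choose rows. Tools listed by the submitters' processing notes are HTSeq 0.6.1, TopHat2 2.0.9 and Bowtie2 2.0.6. Genome build, annotation and any use of strand were not given in the sources used here. Gene names are those of the table or of protein matches, so close copies may share reads. Of 33138 rows, 17 were blank and left out. Columns of other samples numbered 0.

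Depth was implied by the steps of RPKM times query length. Values below 50 reads came out whole, to 0.01 of a read, in 71.6% to 73.5% of cases (chance gives 2%), which is too few for a count test. The 41 genes rested on 60 reads (NUSAP1) to 17459 reads per library. Values were tested as log2(RPKM + 1) with limma 3.58.1 (R 4.3.3, trend on the mean, two-sided), on the 15597 genes that reached 1 RPKM in 4 or more libraries, with Benjamini-Hochberg adjustment and a threshold of 0.05. Fold changes on this scale understate those of low genes. The procedure was checked on simulated data.

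The genes and lists were chosen with earlier results of these data known, so counts and medians of a list carry no test. Values were given library by library for called genes, for the 3 genes of each phase with the largest changes, and for MCM2, PCNA, TYMS, CCNB1, CDK1, TOP2A and MKI67. POLA1 was added after its values were seen. From each wider list, up to 3 called genes per direction with the smallest adjusted p are given with values. Others named there were chosen after their values were seen. CDT1, KIF11, MKI67 and CKAP2 had more than 1 row. Alternatives were another pseudocount, no filter, other scalings, no mean trend, a replicate block, leaving out each library, and the rows outside the rule, the last chosen after seeing the data. A marker gene is not reported here and was left out of its list.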

Additional observations from a re-analysis of the deposited data

Results flagged for a closer look

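In 4 of 96 groups of 4 libraries, a single library lay far from the other 3, which chance gives in about 1 in 20 groups. GINS1, a subunit of the helicase activator, stood at 57.7 RPKM in dome-shaped replicate 4, against 76.9 to 78.8 RPKM in the other dome-shaped libraries. AURKB stood at 89.5 RPKM in primed replicate 3, against 72.3 to 75.1 RPKM in the other primed libraries. BUB1B stood at 45.8 RPKM in the same library, against 52.1 to 53.4 RPKM in the others. NUSAP1, in its low row, stood at 3.40 RPKM in primed replicate 4, against 3.03 to 3.08 RPKM in the others. None of these genes passed the test between the groups.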

How the results depend on the processing

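No gene of the set fell under any alternative, no called gene changed direction, and the medians of both phases moved by less than the spread between libraries. When each library was left out in turn, S phase calls ranged from 0 to 5, G2/M calls from 0 to 3, and the difference of S phase minus G2/M means from -0.02 to 0.10. Without dome-shaped replicate 3 no gene of the set was called (0 of 41), without dome-shaped replicate 2 only CCNB2 was, and without dome-shaped replicate 4 8 were. S phase calls numbered 1 with no filter, with median-of-ratios scaling and with no mean trend. The cause was not tested.

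Other S phase genes called higher numbered 3 with no filter and 1 with no mean trend, and from 1 to 8 over the left-out libraries, with 1 called lower under quantile normalization and from 0 to 1 over the left-out libraries. Other G2/M genes called higher ranged from 3 to 16 over the left-out libraries. Subunits of the anaphase-promoting complex called higher numbered 1 under quantile normalization and from 0 to 1 over the left-out libraries, as did those called lower there. E2F, RB and DREAM genes called higher numbered 0 with no filter and from 0 to 1 over the left-out libraries. All genes called higher ranged from 381 to 1289 and those called lower from 655 to 1441.

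The number in the titles was also tried as a replicate block. Deviations of same-numbered libraries correlated at 0.005, -0.015 and -0.092, and those of libraries with other numbers at -0.068 to 0.089, so pairing was not seen in these deviations. What the number stands for is not known. Under the block the calls of CDC6, CENPE, CCNB2 and TYMS were lost (adjusted p = 0.053, 0.0773, 0.0863 and 0.135, limma) and the G2/M median was 0.03. There 0 S phase and 0 G2/M genes were called, with 2 other S phase genes, 4 other G2/M genes, 0 E2F, RB and DREAM genes in either direction, and 303 higher and 593 lower of all genes.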
